A study of Homo sapiens with 8 samples.

Results

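Mature miRNAs that are often linked to developmental programmes were followed in INA-6 cells after inhibition of EZH2. The set was fixed by name and took in every arm of the miRNAs encoded among the HOX genes (miR-10a, miR-10b, miR-196a, miR-196b and miR-615), of neural miRNAs (miR-7, miR-9, miR-124, miR-129, miR-132, miR-137, miR-212 and miR-218), of muscle miRNAs (miR-1, miR-133a, miR-133b, miR-206 and miR-208a), of epithelial miRNAs (miR-31, miR-141, miR-184, miR-200a, miR-200b, miR-200c, miR-203a, miR-205 and miR-429), of the sensory-organ cluster of miR-183, miR-96 and miR-182, and of miR-122 of liver and miR-375 of endocrine cells. It held 61 of the 2549 human miRNAs on the array. INA-6 is an established human multiple myeloma (MM) line that is grown with interleukin-6. It was treated for 120 hours with UNC1999, a small-molecule inhibitor of EZH2, at 1 μM (4 arrays) or served as control (4 arrays), with medium and compound renewed on the way. The sample titles name the control as DMSO, the solvent, while the treatment protocol of the same samples names UNC2400, an inactive relative of the inhibitor, and the titles were followed here. All samples are of this 1 line, and the labels call the replicates biological without saying how they were separated, so that p-values measure the spread between these samples.

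EZH2 is the catalytic subunit of Polycomb repressive complex 2, which places the repressive mark H3K27me3 on histones. In differentiated cells the HOX genes and many genes of other lineages carry this mark, and the miRNA genes that lie among or beside them are often marked with them. A miRNA is cut from a hairpin that can give a mature strand from each arm, 5p and 3p, and the mature strand finds its target mRNAs mainly through bases 2 to 8, the seed. The arrays measured mature miRNAs only, so that neither the histone mark nor the primary transcripts of these genes are among the values below.

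The mature sequences on which the results turn are printed 5′ to 3′ from RefSeq (GRCh38.p14), with the seed in capitals. They are strands that were detected on at least 1 array, with the undetected relatives of some of them.

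miR-9-5p: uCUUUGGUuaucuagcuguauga
miR-9-3p: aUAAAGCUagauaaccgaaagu
miR-7-5p: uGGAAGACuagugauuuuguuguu
miR-183-5p: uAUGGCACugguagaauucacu
miR-96-5p: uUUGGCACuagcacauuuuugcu
miR-182-5p: uUUGGCAAugguagaacucacacu
miR-196a-5p: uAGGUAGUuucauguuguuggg
miR-196b-5p: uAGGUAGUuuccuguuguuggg
miR-212-3p: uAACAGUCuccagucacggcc
miR-132-3p: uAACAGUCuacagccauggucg
miR-129-1-3p: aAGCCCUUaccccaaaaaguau
miR-129-2-3p: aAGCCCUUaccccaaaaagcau
miR-10a-5p: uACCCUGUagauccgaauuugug

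A mature sequence was found by its name for 54 of the 61 miRNAs. The seed of miR-96-5p differs from that of miR-182-5p by 1 base and from that of miR-183-5p by 1 base (A8C and U2A, read from miR-182-5p to miR-96-5p and from miR-96-5p to miR-183-5p, with positions counted from the 5′ end). These 3 strands lie in the same order on the minus strand of chromosome 7, miR-183-5p at chr7:129774967-129774988, miR-96-5p at chr7:129774739-129774761 and miR-182-5p at chr7:129770447-129770470, between NRF1 and UBE2H. miR-196a-5p and miR-196b-5p have the same seed and differ over their whole length at 1 base (A12C). miR-129-1-3p and miR-129-2-3p also differ at 1 base (U20C), and miR-212-3p has the seed of miR-132-3p, which is transcribed with it. Whether a probe tells such near-identical strands apart was not tested, so the values of each are uncertain to that extent. The coordinates belong to the RefSeq sequences, since the scanner files name GRCh37 as their build.

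The genes of the HOX-cluster miRNAs were placed by gene order. All 6 of them, MIR10A, MIR10B, MIR196A1, MIR196A2, MIR196B and MIR615, overlap a HOX gene or have one as the nearest protein-coding gene on at least 1 side, and 0 of the 32 other member genes looked up do. miR-196a-5p is made from MIR196A1, beside HOXB9, and from MIR196A2, between HOXC10 and HOXC9, and the mature strand does not tell which. In the same way miR-9-5p and miR-9-3p come from 3 genes, MIR9-1 near MEF2D, MIR9-2 near MEF2C and MIR9-3 near POLG.

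Most of these miRNAs were not seen in either group. The scanner software marked 10 of the 61 as detected on at least 1 array and 5 on all 8, and 51 of the 61 (83.6%) were detected on none, beside 77.7% of all 2549 human miRNAs. No member was detected on all arrays of 1 group and on none of the other. All 8 muscle miRNAs, all 16 epithelial miRNAs, both arms of miR-122 and miR-375 were undetected after DMSO and after UNC1999 alike. Of the 18 neural miRNAs 6 were detected somewhere, of the 6 strands of the sensory-organ cluster 2, and of the 10 HOX-cluster miRNAs 2. DMSO replicates 1 to 4 showed 10, 6, 5 and 10 members, and UNC1999 replicates 1 to 4 showed 9, 6, 8 and 6. These ranges overlap. Over all human miRNAs the numbers were 369 to 484 after DMSO, with replicates 2 and 3 lowest, and 474 to 500 after UNC1999. The part of an array's brightness in these numbers was not tested.

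**Figure D1:**
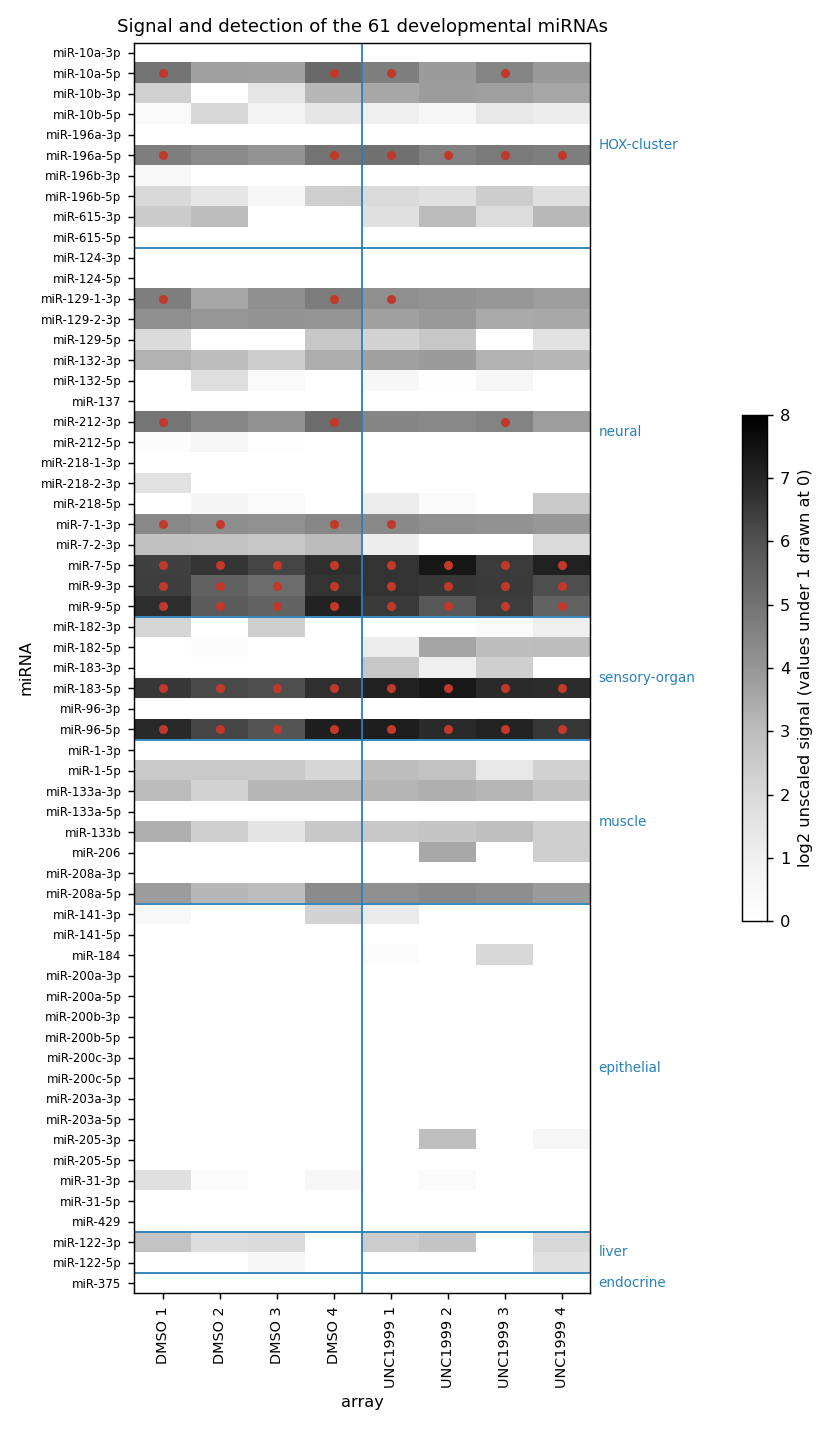
Background-subtracted signal of the 61 miRNAs (rows, by role) on the 4 DMSO and 4 UNC1999 arrays (columns), as log2 of the unscaled intensity with values under 1 drawn at 0; a red dot marks a miRNA called detected on that array. Rows with dots on all 8 arrays are miR-7-5p, miR-9-3p, miR-9-5p, miR-96-5p and miR-183-5p, and the muscle, epithelial, liver and endocrine rows hold none.

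The samples were checked on miRNAs of blood cells in general and of other tissues, none of them specific to plasma cells or myeloma. Of 7 miRNAs of blood cells, 5 were detected on all 8 arrays (miR-142-3p, miR-142-5p, miR-150-5p, miR-181a-5p and miR-223-3p), miR-155-5p was detected on 2 UNC1999 arrays, and miR-146a-5p on none. Their summed unscaled intensity was 2921 to 6829 on the DMSO arrays and 4193 to 6132 on the UNC1999 arrays. In the scaled comparison described below 4 of them were called, miR-142-3p, miR-142-5p and miR-150-5p lower (log2 fold changes of -0.52, -0.36 and -0.56) and miR-223-3p higher (1.18), and their part in the results for the developmental miRNAs was not tested. Of 11 markers of endothelial, stromal, erythroid and embryonic stem cells, 0 were detected on any array, and their summed unscaled intensity was -6.89 to 19.4 after DMSO and -10.4 to 9.09 after UNC1999. In such bulk RNA, fewer cells with a miRNA and less of it per cell cannot be told apart.

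Signals were then compared on the log2 scale. Summed probe intensities of a miRNA were divided by the array's 75th percentile over miRNAs detected on all arrays, which was brighter for UNC1999, 664 ± 88.4 against 419 ± 119 (SD, n = 4 each). A fold change is therefore relative to the other miRNAs of the array. limma's moderated test was run over the 456 miRNAs that every array of DMSO, of UNC1999 or of both detected. A miRNA was called where the p adjusted by Benjamini-Hochberg did not exceed 0.05 and the change reached 1.2-fold. Of the 61 members 6 entered this test, of which 3 were called lower after UNC1999 (miR-9-5p, miR-196a-5p and miR-96-5p) and 0 higher. Beside this, 70.6% of all tested miRNAs were called, 34.6% lower and 36% higher. At an unadjusted p under 0.05 the numbers of members were the same, 3 lower and 0 higher. Among the 5 members detected on all arrays 2 were called, beside 71.1% of all such miRNAs. The direction depends on the scaling. Without scaling the median over all tested miRNAs lay at a log2 fold change of 0.67, against 0.01 with it, and with scaling to the labelling spike-in controls at 0.77. In those settings 0 members were called lower, and 1 and 2 members were called higher, respectively. All 6 members lay below that median in the main setting, a position that a factor per array hardly moves. With the software's sum, with the authors' processed values and without UNC1999 replicate 3 it was 5 of 6, and with the filter of detection on all 8 arrays 4 of 5. Under that filter the median was -0.14. miR-183-5p lay 0.07 above it there, and miR-9-3p lay below it by only 0.05. With normexp background correction the median over all tested miRNAs was itself lower, at -0.29, and 284 of the 456 were called. Relative to that median the members stood between -0.28 (miR-9-5p) and -0.04 (miR-183-5p and miR-7-5p). Without scaling 238 of the 456 were called, and with the authors' processed values 263.

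miR-9 is a brain miRNA that acts in neural progenitors, and both of its arms were detected on all 8 arrays. The log2 scaled signal of miR-9-5p was 6.92, 6.28, 6.27 and 6.93 after DMSO (replicates 1 to 4, in this order throughout) and 6.13, 5.35, 5.96 and 5.45 after UNC1999. Every UNC1999 array lay below every DMSO array. The mean fell from 6.60 ± 0.37 to 5.72 ± 0.38 (SD, n = 4 each). The log2 fold change was -0.88 (SE 0.22, limma adjusted p = 0.0052; exact permutation test, two-sided, p = 0.029, the smallest that 4 against 4 arrays can give). Both of its probes moved alike, by -0.86 and -0.93. The unscaled intensity was 111, 52.5, 44.2 and 131.8 after DMSO and 92.5, 55.9, 87.6 and 45.1 after UNC1999, so that the groups overlap before scaling. The change was -0.18 without scaling (SE 0.33) and -0.07 with spike-in scaling (SE 0.29), neither of them called. Both have the same sign as the main value, but each is smaller than its SE. The call was also lost in the authors' processed values (-0.73, limma adjusted p = 0.082) and with no filter on detection (-0.88, limma adjusted p = 0.12).

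The log2 scaled signal of the other arm, miR-9-3p, was 6.54, 6.07, 6.02 and 6.57 after DMSO and 6.26, 6.12, 6.03 and 6.04 after UNC1999. The groups overlap, and the log2 fold change of -0.19 (95% interval -0.51 to 0.13, limma adjusted p = 0.26) did not pass the test. Without scaling it was 0.51, and with spike-in scaling it was 0.62 and called higher. With normexp background correction it was called lower instead (-0.34, limma adjusted p = 0.0098), where the median of all tested miRNAs was -0.29. The ratio of the arms within an array does not depend on any factor that scales a whole array. The log2 ratio of miR-9-5p over miR-9-3p was 0.38, 0.21, 0.25 and 0.36 on the DMSO arrays and -0.13, -0.77, -0.07 and -0.59 on the UNC1999 arrays. All 4 UNC1999 arrays lay below all 4 DMSO arrays, with a difference of -0.69 (exact permutation test, two-sided, p = 0.029, adjusted p = 0.057 over the 2 ratios compared). After adjustment this difference did not pass 0.05. Its p was already the smallest possible, and the other ratio, miR-96-5p over miR-183-5p, had p = 0.20 in the same permutation test. Beside that value the adjusted p could not have been lower, so this test could not decide whether the arms changed unequally.

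**Figure D2:**
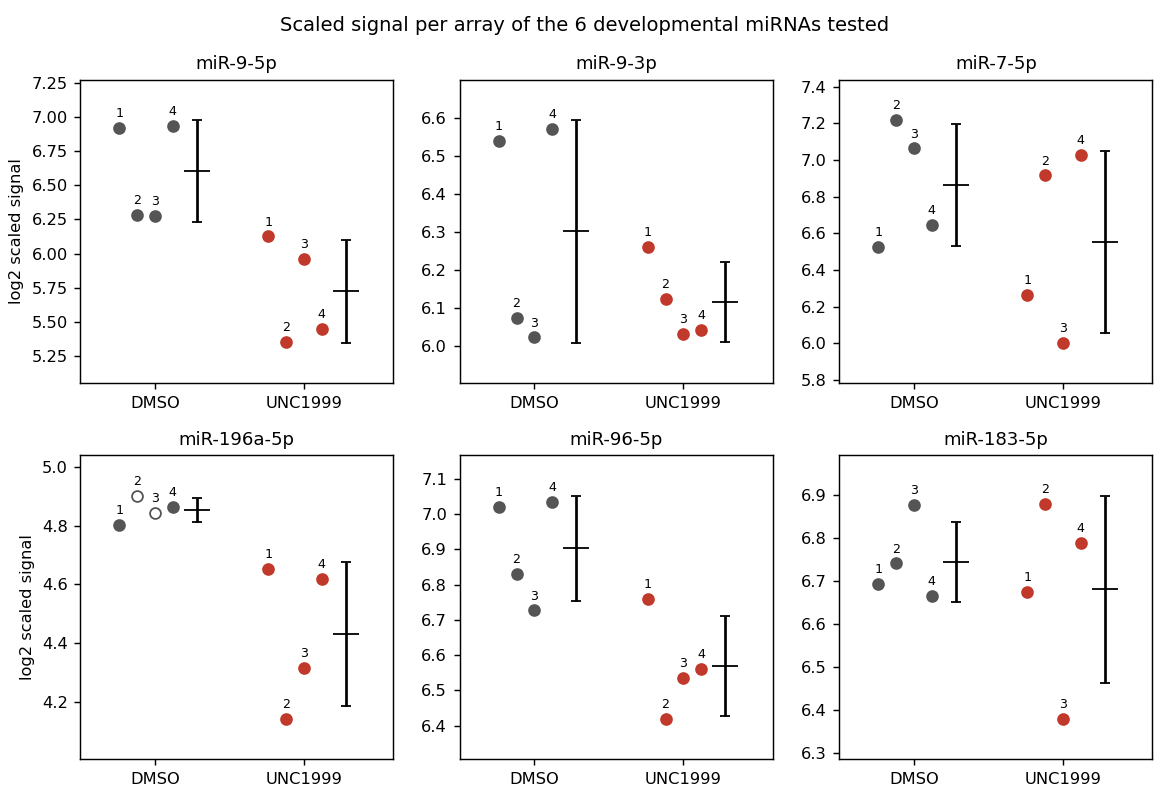
Log2 scaled signal of the 6 tested miRNAs on each array (numbers are replicates) with group mean and SD (n = 4) to the right; open points are arrays on which the miRNA was not called detected. The groups do not overlap for miR-9-5p and miR-196a-5p. All 6 group means are lower after UNC1999 on this scale, whereas without scaling only that of miR-9-5p is lower.

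miR-7-5p, a miRNA of neuroendocrine and brain cells, can be made from 3 genes, of which MIR7-1 overlaps the widely expressed gene HNRNPK. Its log2 scaled signal was 6.52, 7.22, 7.06 and 6.64 after DMSO and 6.27, 6.92, 6.002 and 7.03 after UNC1999. The spread within each group exceeded the difference of -0.31 (95% interval -0.85 to 0.23, limma adjusted p = 0.26). The change was 0.39 without scaling and 0.50 with spike-in scaling, neither of them called.

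The strands of the cluster of miR-183, miR-96 and miR-182 serve in the hair cells and photoreceptors of sense organs and derive from a shared primary transcript. miR-96-5p gave 7.02, 6.83, 6.73 and 7.03 after DMSO and 6.76, 6.42, 6.54 and 6.56 after UNC1999 on the log2 scaled scale. The groups overlap by 1 array, UNC1999 replicate 1 above DMSO replicate 3. The log2 fold change was -0.33 (SE 0.11, limma adjusted p = 0.022), and the exact permutation test, two-sided, gave p = 0.057. Without DMSO replicate 1, DMSO replicate 4, UNC1999 replicate 2 or UNC1999 replicate 3 the call was lost, with log2 fold changes between -0.28 and -0.32 and adjusted p between 0.052 and 0.062. Without scaling and with spike-in scaling the sign turned, to 0.36 and 0.47, and neither value was called. The sign stayed and the call was lost with the 75th percentile of every human miRNA (-0.11, limma adjusted p = 0.60). The same held with no filter on detection (-0.33, limma adjusted p = 0.13) and with the slide row as a block (-0.28, limma adjusted p = 0.098).

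miR-183-5p gave 6.69, 6.74, 6.88 and 6.66 after DMSO and 6.68, 6.88, 6.38 and 6.79 after UNC1999. The log2 fold change of -0.06 (95% interval -0.33 to 0.21, limma adjusted p = 0.64) did not pass the test. In the unscaled intensity the groups were apart the other way, 94.8, 72.1, 67.1 and 109 after DMSO against 135, 161, 117 and 114 after UNC1999. It was accordingly called higher without scaling (0.63, limma adjusted p = 0.044) and with spike-in scaling (0.74, limma adjusted p = 0.0023). With normexp background correction it was called lower (-0.33, limma adjusted p = 0.035), close to the median of all tested miRNAs there, -0.29. Over all settings the limma adjusted p was 0.0023 to 0.90. The log2 ratio of miR-96-5p over miR-183-5p within an array was 0.16 ± 0.24 after DMSO and -0.11 ± 0.29 after UNC1999 (SD, n = 4 each). The difference of -0.27 did not pass the exact permutation test, two-sided (p = 0.20, adjusted p = 0.20 over the 2 ratios). The strand at the other end of the cluster, miR-182-5p, was detected on no array.

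**Figure D3:**
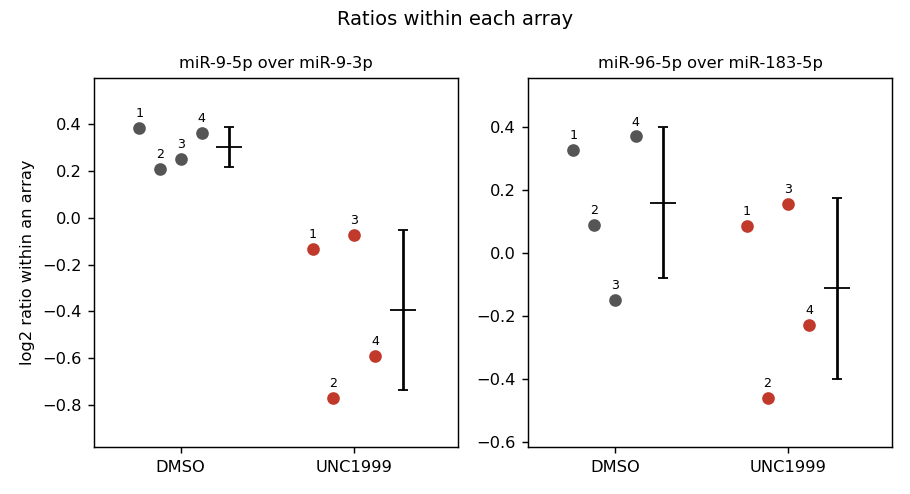
Log2 ratio within each array of miR-9-5p over miR-9-3p (left) and of miR-96-5p over miR-183-5p (right), numbered by replicate, with group mean and SD (n = 4). The ratio of the miR-9 arms is 0.21 to 0.38 on the DMSO arrays and -0.77 to -0.07 on the UNC1999 arrays, and the ratio of the cluster members overlaps between the groups. The height of a ratio of different probes, and its sign, do not compare the levels of the strands.

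miR-196a-5p, which targets HOX mRNAs in the embryo, was the only HOX-cluster miRNA in the test. It was marked as detected on all 4 UNC1999 arrays and on DMSO replicates 1 and 4, and not on DMSO replicates 2 and 3. Its log2 scaled signal nevertheless went the other way, with 4.80, 4.90, 4.84 and 4.86 after DMSO and 4.65, 4.14, 4.32 and 4.62 after UNC1999. All UNC1999 arrays lay below all DMSO arrays. The log2 fold change was -0.42 (SE 0.13, limma adjusted p = 0.013; exact permutation test, two-sided, p = 0.029). The unscaled intensity was 25.5, 20.1, 16.4 and 31.4 after DMSO and 33.3, 24.1, 28.0 and 25.3 after UNC1999, with overlapping groups and a higher mean after UNC1999. The sign thus turned without scaling (0.28) and with spike-in scaling (0.39), both not called. With quantile normalization (-0.16, limma adjusted p = 0.31), the 75th percentile of every human miRNA (-0.20, limma adjusted p = 0.33), no filter on detection (-0.42, limma adjusted p = 0.12) and the slide row as a block (-0.36, limma adjusted p = 0.062) the sign stayed and the call was lost. The adjusted p ranged from 0.0085 to 0.43 over all settings. The sign also turned with the scanner software's sum (0.43) and in the authors' processed values (1.54), where an undetected miRNA stands at a fixed low value. Of the 2 probes, 1 had groups that did not overlap, with a change of -0.46, and the other changed by -0.33 (exact permutation test, two-sided, p = 0.20).

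A further 4 members were detected on some arrays of each group and did not enter the test. miR-10a-5p, the second HOX-cluster strand, was detected on DMSO replicates 1 and 4 and UNC1999 replicates 1 and 3. miR-129-1-3p was detected on DMSO replicates 1 and 4 and UNC1999 replicate 1. miR-212-3p, a miRNA induced by neuronal activity, was detected on DMSO replicates 1 and 4 and UNC1999 replicate 3. miR-7-1-3p, the strand particular to MIR7-1, was detected on DMSO replicates 1, 2 and 4 and UNC1999 replicate 1. All 4 were dim, with unscaled intensities of 11.96 to 39.7, beside 7.72 to 13.2 for the dimmest detected miRNA of each array.

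For these 4 strands the scaling decided whether the groups were apart, while the unscaled means were lower after UNC1999 as well. These means were 24.1 and 19.2 for miR-10a-5p, 20.4 and 16.1 for miR-129-1-3p, 26.5 and 19.8 for miR-212-3p, and 19.6 and 17.8 for miR-7-1-3p. The unscaled intensity of miR-212-3p was 30.3, 21.6, 17.5 and 36.7 after DMSO and 22.0, 20.5, 23.0 and 13.8 after UNC1999, and the groups overlap. On the log2 scaled scale it was 5.05, 5.00, 4.94 and 5.09 against 4.05, 3.91, 4.03 and 3.74, and the groups are far apart. The scaled means of miR-10a-5p, miR-129-1-3p and miR-7-1-3p differed by -0.89, -0.98 and -0.84 on the log2 scale, also without overlap. The unscaled groups of all 4 overlapped, and exact permutation tests, two-sided, of the unscaled values gave p between 0.20 and 0.54. When all 2549 miRNAs were tested with no filter on detection, miR-212-3p, miR-129-1-3p and miR-7-1-3p were called lower (limma adjusted p of 0.0027, 0.034 and 0.033), and miR-10a-5p was not (limma adjusted p = 0.13). The undetected miR-129-2-3p was called lower there too (log2 fold change -1.05, limma adjusted p = 0.040). In that setting 4 of the 61 members were thus called, beside 195 of all 2549 miRNAs in either direction, a similar share.

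**Figure D4:**
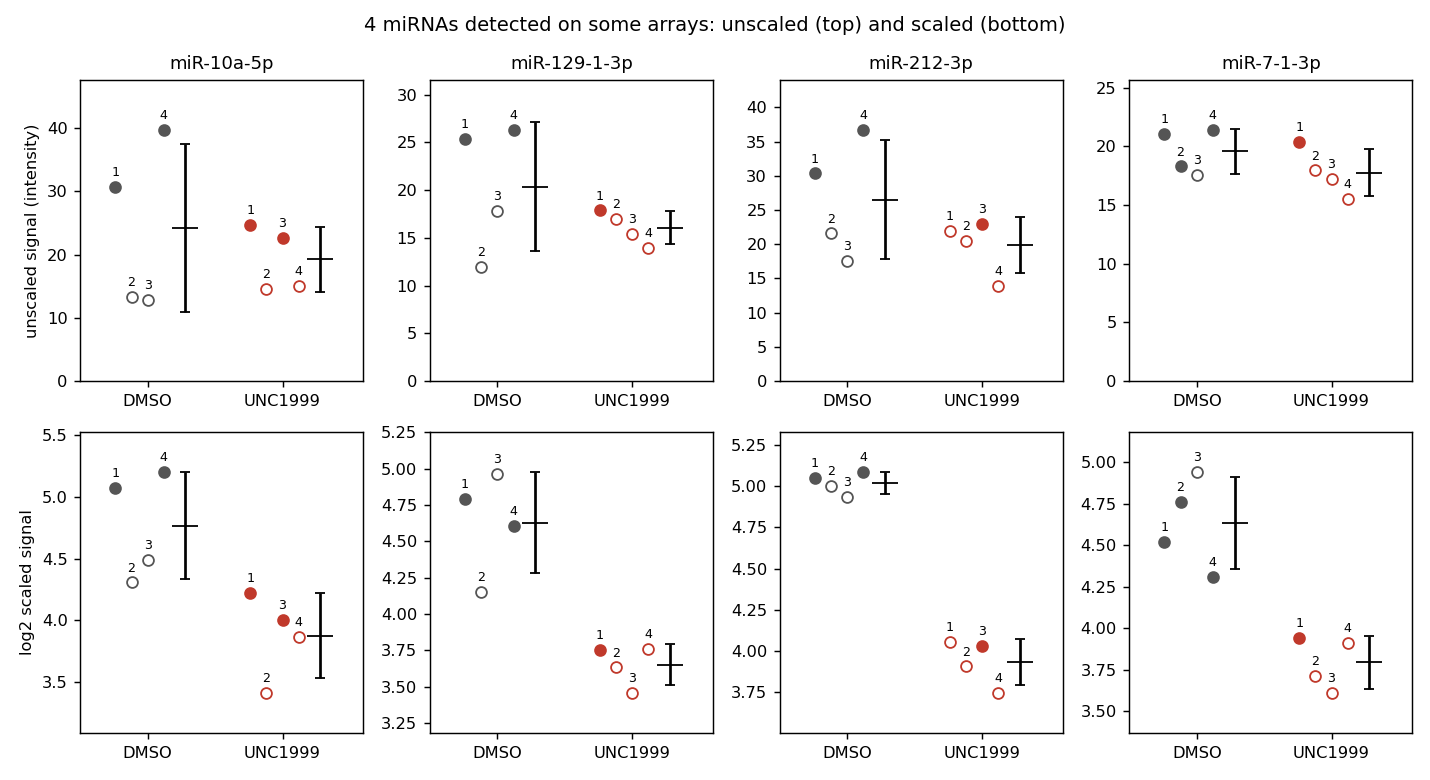
Unscaled intensity (top) and log2 scaled signal (bottom) of the 4 miRNAs detected on some arrays, numbered by replicate, with group mean and SD (n = 4); filled points are arrays on which the miRNA was called detected. The groups overlap in every top panel and are apart, lower after UNC1999, in every bottom panel.

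The 51 undetected members lay in the background. Their unscaled intensities ranged from -21.1 to 20.5, and the median over them was -1.88 after DMSO and -1.35 after UNC1999, against -1.23 and -1.24 over all 1980 undetected human miRNAs. The brightest 3 were miR-208a-5p of heart muscle, with a mean of 12.7 after DMSO and 17.9 after UNC1999, miR-129-2-3p, with 16.7 and 12.8, and miR-132-3p, with 8.40 and 11.6. The groups of 7 of the 51 did not overlap, 3 of them higher and 4 lower after UNC1999, beside 7.63% of all undetected miRNAs without overlap. After scaling the members were no longer above that background, with 6 of the 51 without overlap (11.8%, 4 higher and 2 lower) beside 13.6% of all undetected miRNAs. Picked out after their values were seen, those apart in the unscaled signal were miR-10b-3p, miR-182-5p and miR-183-3p on the higher side and miR-7-2-3p, miR-129-2-3p, miR-133a-5p and miR-200b-3p on the lower. None of them was detected on any array, so a change of these strands cannot be relied on at this signal. Among these 7, only miR-129-2-3p was called when no filter on detection was used. Of the higher ones, miR-182-5p had -0.23, 1.15, -3.63 and 0.81 after DMSO and 2.26, 12.3, 7.78 and 7.97 after UNC1999. miR-10b-3p, of the HOXD cluster, had 4.90, 0.81, 2.78 and 8.91 against 11.7, 14.3, 13.6 and 11.9. The highest values of these 2 strands, 12.3 and 14.3, stand beside 8.75 to 12.4 for the dimmest detected miRNA of each UNC1999 array. Of the lower ones, miR-7-2-3p had 7.25, 6.87, 6.21 and 8.11 against 2.18, 0.13, -2.16 and 3.79. miR-129-2-3p had 18.0, 15.9, 16.6 and 16.1 against 13.4, 15.0, 11.3 and 11.4.

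Among the 54 members with a mature sequence, 9 seeds were shared by at least 2 strands, which groups these by possible targets. The members without a sequence, miR-10b-5p among them, could not be placed in this way. The miR-200 family (miR-200b-3p, miR-200c-3p and miR-429 with one seed, miR-200a-3p and miR-141-3p with another), which holds cells in the epithelial state, had no detected strand. The same held for miR-1-3p with miR-206 and for miR-133a-3p with miR-133b, the muscle pairs. In each of the 4 pairs miR-196a-5p and miR-196b-5p, miR-212-3p and miR-132-3p, miR-129-1-3p and miR-129-2-3p, and miR-7-1-3p and miR-7-2-3p, 1 strand was detected on some arrays and the other on none.

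Within a group the arrays resembled each other by pairs, which the values of some members followed. DMSO replicates 1 and 4 resembled UNC1999 replicates 1 and 3, and DMSO replicates 2 and 3 resembled UNC1999 replicates 2 and 4, by a component that held 14.7% of the variance over tested miRNAs outside the set. DMSO replicates 1 and 4 were also brighter, with 75th percentiles of 474 and 559, against 349 and 296 for replicates 2 and 3. For UNC1999 replicates 1 and 3 they were 686 and 729, against 708 and 534 for replicates 2 and 4. The part of brightness in the differences below was not tested. miR-9-5p was higher on the first kind by 0.65 within DMSO and by 0.64 within UNC1999 on the log2 scale, and miR-7-5p lower by 0.56 and 0.84. The median size of this difference over all 456 tested miRNAs was 0.27 within DMSO and 0.17 within UNC1999. Within each kind the change of miR-9-5p after UNC1999 was alike, -0.89 and -0.88, as were those of miR-96-5p, -0.38 and -0.29, and miR-196a-5p, -0.35 and -0.49. miR-9-3p changed by -0.41 on the first kind and by 0.03 on the second. With the kind of array as a block, chosen after seeing the data, miR-7-5p was called lower too (-0.31, limma adjusted p = 0.017, the lowest of 0.017 to 0.71 over its settings).

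All arrays lay on 1 slide in 2 rows, with DMSO replicates 1, 2 and 4 and UNC1999 replicate 4 in the first row and the others in the second. Within the first and the second row miR-9-5p changed by -1.26 and -0.46, miR-196a-5p by -0.24 and -0.47, and miR-96-5p by -0.40 and -0.15. The other 3 tested members changed sign between the rows, miR-183-5p with 0.09 and -0.23, miR-7-5p with 0.23 and -0.67, and miR-9-3p with -0.35 and 0.12. Each row holds only 1 array of a group. With the row as a block miR-9-5p alone was called.

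**Figure D5:**
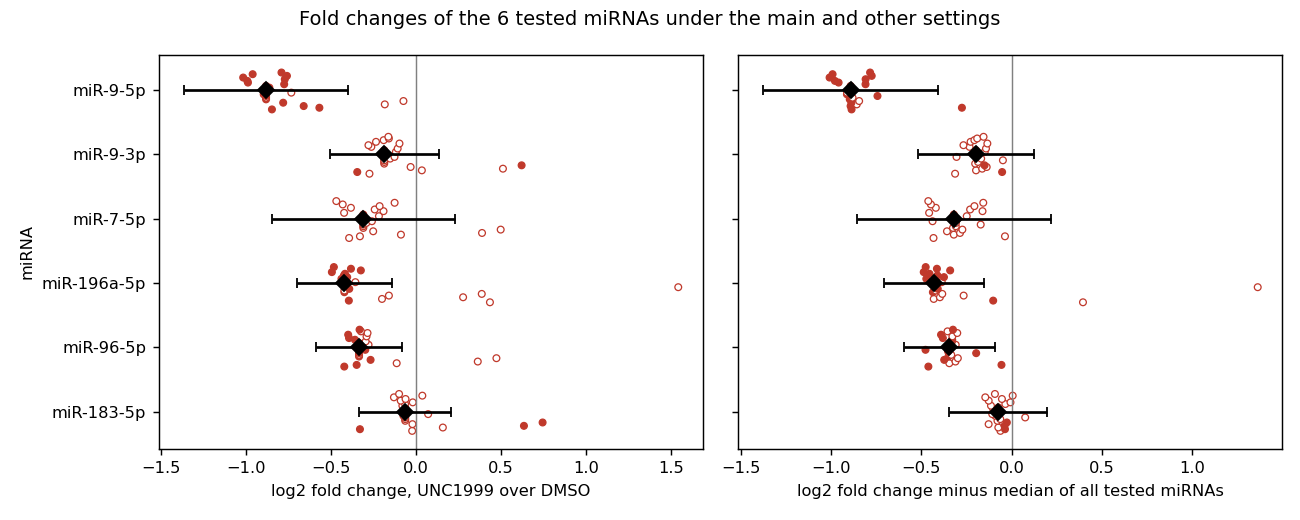
Log2 fold change of the 6 tested miRNAs, UNC1999 over DMSO (left), and the same minus the median of all tested miRNAs in that setting (right). Black diamonds with bars are the main value with its 95% interval, small points the other settings, filled where called. On the left miR-9-5p alone stays below 0 in every setting, and the points at the right of 0 for the others come from other scalings, the software's sum or the authors' processed values, and for miR-183-5p also from leaving out UNC1999 replicate 3.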

How the data were processed

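The authors deposited the scanner output of 8 single-colour arrays (Agilent Feature Extraction 10.7.3.1, per the labels), with a background-subtracted intensity per spot on each array's own scale, and a table of normalized log2 values. The spots of a probe were averaged without outlier spots (1392 to 2292 of 53144), probes were summed per miRNA, and arrays were scaled to the 75th percentile of the 346 miRNAs that all 8 arrays detected. Values below 8.98, the median of the arrays' lowest detected scaled signals, were raised to it before log2 was taken. The floor understates changes of dim miRNAs. The 456 miRNAs detected on all 4 arrays of a group were fitted with limma 3.58.1 (R 4.3.3), without a block, after the steps were tested on simulated data. Sequences and gene order are RefSeq's (GRCh38.p14).

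The members and lists were chosen with earlier results of these data known. Every member in the test or detected on any array was named. Of the others, the brightest 3 were given values, as were some strands picked out after their values were seen. Alternatives were the software's sum per miRNA, normexp with an offset of 50 (run on the median spot intensity), other scalings, floors, filters and variance models, log2 probe means, the authors' log2 values, blocks, stricter and looser thresholds, the methods' paired t-test and each array left out. The number of arrays limits the precision. The mRNA, ChIP and qPCR data of the study were not analysed here.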

Additional observations from a re-analysis of the deposited data

How the results depend on the processing

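The number of members called (3) and called lower (3) became 5 and 5 with normexp, 1 and 1 with the 75th percentile taken over every human miRNA, the authors' processed values, the slide row as a block, an adjusted p of at most 0.01 or the methods' paired t-test after Benjamini-Hochberg adjustment, and 1 and 0 without scaling. Spike-in scaling left 2 called, 0 lower. With normexp the median over all tested miRNAs was itself lower after UNC1999, and most members lay close to it. Over all tested miRNAs fewer were called than in the main setting with normexp, each of these scalings, the authors' values or the slide row. Those called higher (0) became 1 without scaling and 2 with spike-in scaling. Of the 5 members detected on all arrays, the 2 called became 4 with normexp, 1 with the all-miRNA percentile, without scaling, with the authors' values or with the slide row, and 0 with no filter, which tested 61 members. Leaving out an array gave 2 to 3 calls, all lower, and 1 to 2 among those 5, where miR-96-5p lost its call. The sign turned for miR-183-5p with the all-miRNA percentile (0.16), no scaling (0.63), spike-in scaling (0.74), the authors' values (0.072) and without UNC1999 replicate 3 (0.038, leaving out others as low as -0.13), for miR-9-3p with the all-miRNA percentile (0.035), no scaling (0.51) and spike-in scaling (0.62), for miR-7-5p (0.39 and 0.50) and miR-96-5p (0.36 and 0.47) with no scaling and spike-in scaling, and for miR-196a-5p with these (0.28 and 0.39), the software's sum (0.43) and the authors' values (1.54). The cause was not tested, beyond the shift of the median of all tested miRNAs. miR-9-5p ranged from -1.02 to -0.07 over 23 alternatives and was not called in 4. The deviations of same-numbered samples from their group means correlated at 0.18, 0.27, -0.42 and -0.39. These values do not show whether samples of 1 number were prepared together. With the replicate block 3 members were called, all 3 lower, 2 of them among the 5 detected on all arrays and 6 tested. The blocked log2 fold changes were those of the main fit.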
